A study of Mus musculus with 2 samples.

Results

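Endothelin and nitric oxide are opposing regulators of vascular tone, and in the liver they act on the cells that wrap the sinusoids. The peptide endothelin 1 is made as a precursor from Edn1, is cut to its active form by the endothelin-converting enzyme Ece1, and is sensed by 2 receptors, Ednra and Ednrb. Nos3, the endothelial nitric oxide synthase, makes nitric oxide, whose intracellular receptor is soluble guanylate cyclase, a dimer of an alpha and a beta subunit encoded by Gucy1a1 and Gucy1b1. These 7 genes were chosen by name, were matched by Ensembl identifier, and are described here out of 30406 genes listed for both libraries. In the cells that were kept they held 15903 unique molecular identifiers (UMIs, each counting 1 captured RNA molecule) in the library of healthy liver and 87903 in the library of CCl4-injured liver.

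The mice of both libraries carried Col1a2CreER and Rosa26tdTomato, in which the Col1a2 promoter drives a tamoxifen-dependent Cre that switches on the tdTomato reporter, so the labelled cells are those with Col1a2 activity. One group was healthy and the other had been injured by repeated injections of carbon tetrachloride (CCl4), a hepatotoxin used to model chronic liver fibrosis. Males and females entered the injury model, on a C57BL/6 background, and the number of animals behind each library is not given in the sources used here. Liver cells were released by pronase and collagenase, purified on a density gradient and depleted of CD45-positive leukocytes with magnetic beads. There was 1 library per group, so the comparison of healthy with injured liver has no replicate, no p-value is given for it, and animal, batch and injury cannot be told apart.

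After filtering, 5602 of 6297 cell barcodes were kept in the healthy library and 7314 of 8460 in the CCl4 library, with medians of 6784 and 11876 UMIs per cell. 10 barcodes were shared by the libraries. Cells were clustered without the 7 genes, and clusters were named from marker lists, which gave 3511 endothelial-like cells from healthy liver and 647 from injured liver. Mesothelial-like cells numbered 228 and 890 in the same order. Stellate cells, the pericytes of the sinusoid, were almost confined to the injured sample, with 1858 hepatic stellate-like cells there against 5 in the healthy library. Another 1288 mesenchymal-like cells of the CCl4 library, 1773 cells of that library in all its unnamed clusters and 237 unnamed healthy cells were given no narrower name. The immune-like cells of the CCl4 library numbered 509 despite the CD45 depletion. Globin UMIs, from red blood cells, were present in 20.3% of the CCl4 cells and 0.0536% of the healthy cells. Levels are given as CPM, the UMIs of a gene per 1e+06 UMIs summed over a class, with the exact Poisson 95% interval, which covers counting error only.

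The genes lie on 6 chromosomes of GRCm38.p6. Gucy1b1 (chromosome 3, 82032004 to 82074711) and Gucy1a1 (82092427 to 82145946) are neighbours, 17.7 kb apart. Edn1 lies on chromosome 13 (42301476 to 42307990), Ece1 on chromosome 4 (137862237 to 137965229), Nos3 on chromosome 5 (24364816 to 24384474), Ednra on chromosome 8 (77663029 to 77724452) and Ednrb on chromosome 14 (103814615 to 103844508). The 250 bases before a RefSeq start (GRCm38.p6) of the ligand and of each receptor are shown because these 3 genes carry the cell-type pattern described below. The Ednrb window precedes a start that lies inside the annotated gene. Of the 7 genes, 6 had a promoter entry and Nos3 had none. They are written 5′ to 3′ in the sense of the gene, and capitals mark CACCC on either strand, the core bound by Krüppel-like factors such as Klf2.
Edn1 (chr13:42301226-42301475, plus strand): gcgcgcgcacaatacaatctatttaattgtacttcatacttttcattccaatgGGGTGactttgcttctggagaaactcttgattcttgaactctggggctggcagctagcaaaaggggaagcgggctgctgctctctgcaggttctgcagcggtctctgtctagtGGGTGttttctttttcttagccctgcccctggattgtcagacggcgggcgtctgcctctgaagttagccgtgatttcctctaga
Ednra (chr8:77724453-77724702, minus strand): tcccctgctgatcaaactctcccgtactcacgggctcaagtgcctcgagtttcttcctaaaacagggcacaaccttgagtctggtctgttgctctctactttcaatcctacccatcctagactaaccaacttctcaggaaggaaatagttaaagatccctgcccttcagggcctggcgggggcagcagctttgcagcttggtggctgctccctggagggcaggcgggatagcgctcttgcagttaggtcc
Ednrb (chr14:103843702-103843951, minus strand): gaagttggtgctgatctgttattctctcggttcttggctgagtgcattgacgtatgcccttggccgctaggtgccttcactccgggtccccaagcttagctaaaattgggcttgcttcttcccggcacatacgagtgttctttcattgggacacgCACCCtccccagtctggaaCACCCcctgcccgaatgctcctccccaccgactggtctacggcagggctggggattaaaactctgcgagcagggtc

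CACCC occurred at 2 places in the Edn1 window and at 2 in the Ednrb window, and at none in that of Ednra. It was found in 52.0% of all 32851 promoter windows of this length, so its presence sets neither gene apart. The GC box GGGCGG (32.7% of windows), the TATA box TATAAA (12.4%) and the GATA motif AGATAA (9.99%), each searched on both strands, occurred in none of the 3 windows. Motifs were counted by their letters, CACCC and GGGCGG, or TATAAA and AGATAA, can share bases at their ends, and a match is no evidence of a bound site.

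Edn1, the ligand, was most abundant in endothelial-like cells of both libraries. In the healthy library its level was 79.7 CPM (95% interval 75.8 to 83.7, 1597 UMIs) in endothelial-like cells and 0.529 CPM in mesothelial-like cells, from 2 UMIs. Cholangiocyte-like cells held 233 UMIs, with an interval of 11.4 to 14.8 CPM. In the CCl4 library it was 62.3 CPM (55.1 to 70.2) in endothelial-like cells, 24.8 CPM (22.4 to 27.3) in mesothelial-like cells and 4.89 CPM (4.08 to 5.82) in hepatic stellate-like cells. T and NK cell-like cells, which served as a gauge of free RNA, held 0 Edn1 UMIs, a count that allows up to 5.95 CPM. The endothelial and mesothelial levels lay above that limit. The stellate-like level lay under it, but the limit reflects the few UMIs of these cells and does not place that level. Over all immune-like cells of the library 1 Edn1 UMI gave 0.403 CPM (0.0102 to 2.25), below the stellate-like interval. Hepatocyte-like cells held 4.05 CPM (0.491 to 14.6), from 2 UMIs.

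**Figure D1:**
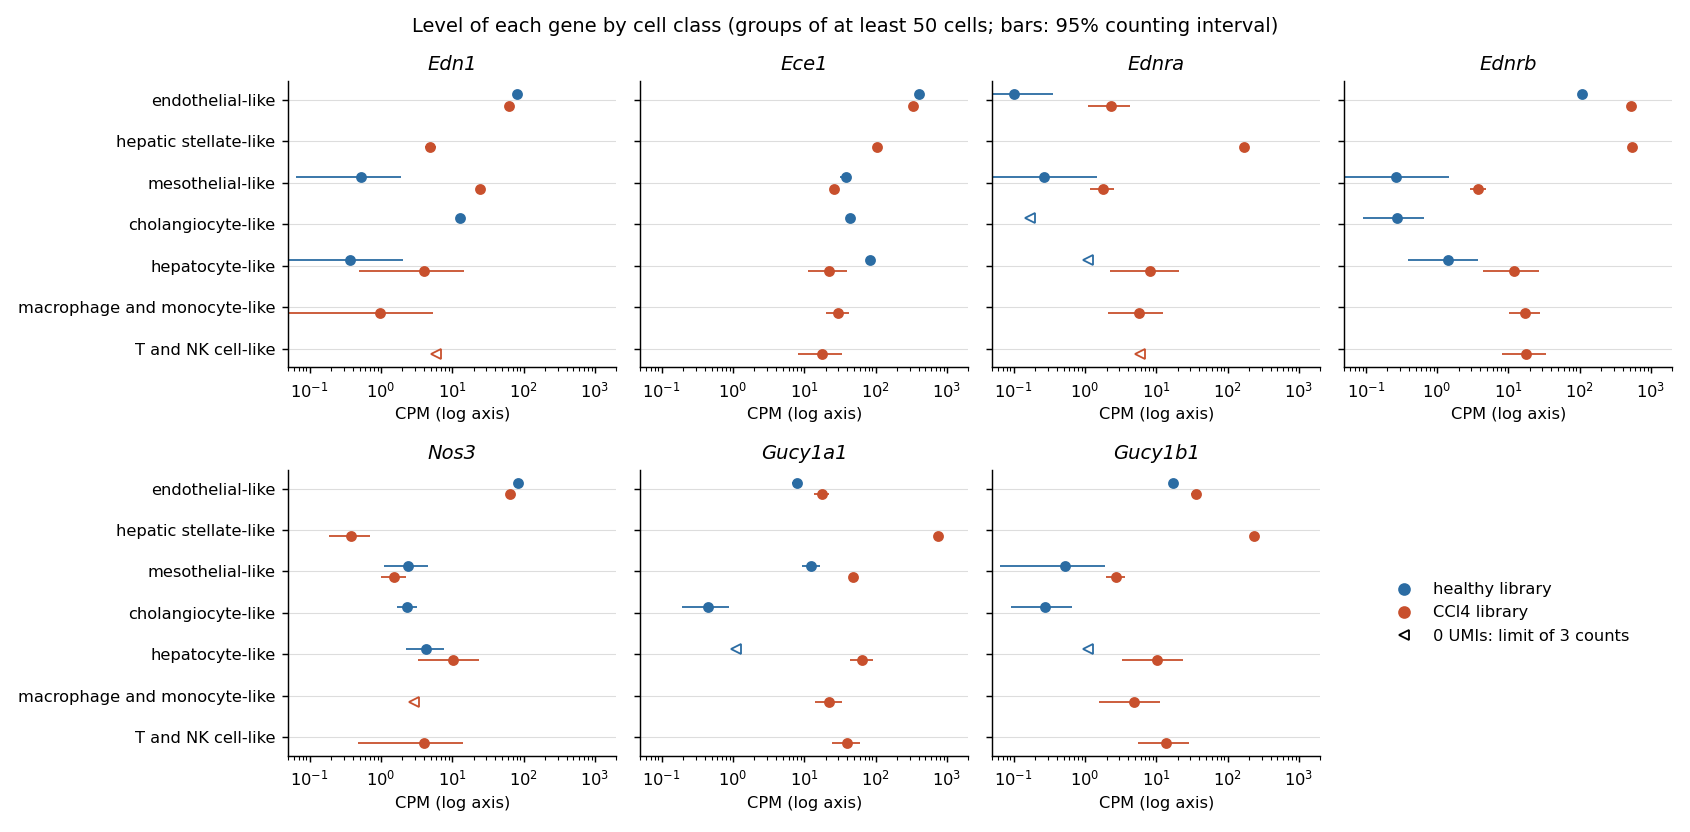
Level of each of the 7 genes (CPM, log axis) by cell class in the healthy and CCl4 libraries, for groups of at least 50 cells. Points are sums over cells, bars are 95% counting intervals, and open triangles mark 0 UMIs at the limit of 3 counts. Edn1, Ece1 and Nos3 were highest in endothelial-like cells, and in the CCl4 library Ednra, Gucy1a1 and Gucy1b1 stood at 171, 755 and 235 CPM in stellate-like cells.

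The share of the Edn1 UMIs that came from endothelium was 84.8% (exact binomial 95% interval 83.1 to 86.4) of 1883 UMIs in the healthy library and 18.6% (16.7 to 20.7) of 1454 in the CCl4 library. In the CCl4 library 27.9% of Edn1 UMIs were in mesothelial-like cells and 37.8% in mesenchymal-like cells. These shares follow the number of cells of each class recovered as well as the level per cell, and the classes were recovered in unlike numbers.

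Within the endothelium Edn1 was concentrated in few cells. In the healthy library the cluster with large-vessel markers (247 cells) held 630 CPM (597 to 665) and the main sinusoidal endothelial-like cluster (2173 cells) held 9.22 CPM (7.73 to 10.9). Of the 647 endothelial-like cells of the CCl4 library, 62 had an Edn1 UMI, and 10 of them held 61.6% of the 271 UMIs. The most abundant single cell held 39 UMIs in each library. Over all endothelial-like cells the ratio of CCl4 to healthy was 0.782 (0.685 to 0.890), and its direction depended on these few cells. Without the large-vessel subclusters described next, Edn1 stood at 38.0 CPM in the healthy and 48.4 CPM in the CCl4 library. The ratio was then 1.27 (1.08 to 1.49). With the CCl4 subcluster led by Nts left out as well, it was 0.279 (0.195 to 0.389). The healthy subclusters that shared leading genes with that subcluster were kept in this ratio. Of them, the one led by Cyp1b1, with Nts among its leading genes, held 572 of the 693 healthy UMIs. The ratio of 0.279 thus left out such cells in the CCl4 library alone. The large-vessel subclusters are not the same cells as the large-vessel cluster. In the healthy library that cluster held 1315 Edn1 UMIs in 247 cells, and the subcluster 904 in 221 cells. The healthy level of 38.0 CPM thus differs from the 15.7 CPM (13.9 to 17.7) of the healthy sinusoidal endothelial-like cells as first named.

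Endothelial-like cells of each library were then clustered by themselves. In the healthy library the large-vessel endothelial-like subcluster (221 cells, led by Col8a1, Npr3 and Gja5) held 502 CPM of Edn1 and 865 CPM of Ednrb. A subcluster led by Cyp1b1, Col6a3 and Fmo2 (76 cells) held more Edn1, 921 CPM, with only 33.8 CPM of Ednrb. Another, led by Ajap1, Lhx6, Rspo3 and Wnt9b (88 cells), held 75.8 CPM of Edn1 and 30.7 CPM of Ednrb. The other healthy subclusters of at least 20 cells held between 0.609 and 15.7 CPM of Edn1, so a high ligand level came both with and without a high Ednrb level.

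In the CCl4 library the large-vessel endothelial-like subcluster was small (27 cells, led by Col8a1, Nrg1 and Stmn2) and held 399 CPM of Edn1 and 1606 CPM of Ednrb. A subcluster led by Nts, Wnt9b and Rspo3 (73 cells) held 240 CPM of Edn1 and 1631 CPM of Ednrb. Rspo3 and Wnt9b also led the healthy subcluster with 30.7 CPM of Ednrb, and Nts was among the leading genes of the healthy subcluster with 33.8 CPM. The subcluster led by Nts also carried stellate and fibroblast markers, 6 of each list, with 48 Reln UMIs (69.9 CPM) and 5 Ednra UMIs (7.28 CPM), beside 1120 Ednrb UMIs. Their part in its Ednrb level was not tested.

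**Figure D2:**
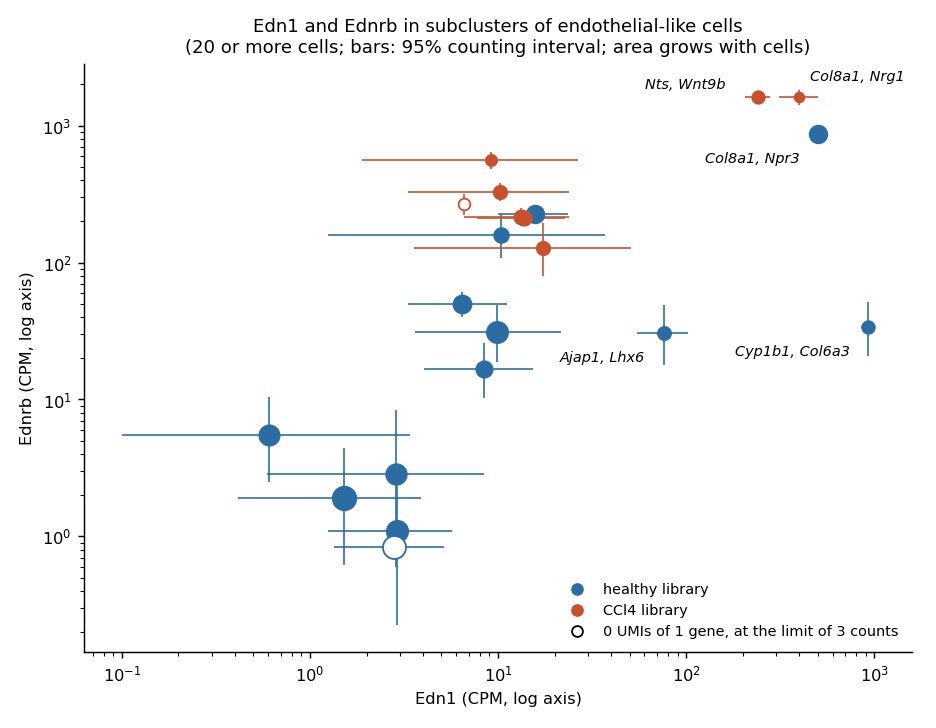
Edn1 against Ednrb (CPM, both axes log) in subclusters of endothelial-like cells with at least 20 cells, healthy library in blue and CCl4 library in red, with 95% counting intervals. Names give the first leading genes of the subclusters above 50 CPM of Edn1. CCl4 subclusters with little Edn1 held more Ednrb than most healthy ones, and a healthy subcluster at 921 CPM of Edn1 held only 33.8 CPM of Ednrb.

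Ednrb was higher in the endothelium of the CCl4 library. Ednrb, a receptor that on endothelial cells is coupled to nitric oxide release and clears endothelin, stood at 106 CPM (102 to 111) in healthy and 528 CPM (507 to 550) in CCl4 endothelial-like cells, a ratio of 4.96 (4.67 to 5.26). Over all 8966 genes with at least 10 CPM in either library, 17.9% passed the same rule, a ratio of at least 2 in either direction with an interval that leaves out 1. Of 6 members that could be called, 3 were higher and 0 lower, beside 365 genes higher and 1243 lower in all. The 3 were Ednrb, Gucy1a1 and Gucy1b1. Gucy1a1 lay below its level in T and NK cell-like cells, as given below, so its call may reflect free RNA. The median log2 ratio was 0.41 over these 6 members and -0.32 over all genes tested.

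The ratio for Ednrb was larger outside the large vessels. With the large-vessel subclusters left out, Ednrb stood at 31.7 CPM (29.2 to 34.4) in 3290 healthy cells and at 483 CPM (462 to 505) in 620 CCl4 cells, a ratio of 15.2 (13.9 to 16.8). The CCl4 subcluster led by Nts, 73 of these 620 cells, held 1120 of the 2017 Ednrb UMIs, and without it the level was 257 CPM and the ratio 8.12 (7.30 to 9.03). The healthy subclusters that shared leading genes with it were kept in that ratio. In this comparison 18.5% of genes passed the rule. Of the 578 healthy Ednrb UMIs, 332 were in a subcluster of 222 cells led by Cnmd and Slc45a4, at 227 CPM (203 to 253). A CCl4 subcluster of 49 cells, with both genes among its leading genes, held 183 Ednrb UMIs of 328573 UMIs in all. The ratios outside the large vessels were not matched by subcluster. By the first naming, the 3264 healthy sinusoidal endothelial-like cells held 55.7 CPM (52.3 to 59.3) of Ednrb. In the large-vessel subclusters the levels were 865 and 1606 CPM, a ratio of 1.86 (1.63 to 2.11) that did not reach 2, in a comparison where 11.8% of genes passed. Ednrb UMIs were found in 4.74% of the healthy and 45.0% of the CCl4 cells outside the large vessels, at median depths of 5781 and 6588 UMIs, and in 7.14% of T and NK cell-like cells (median 4123 UMIs), whereas cholangiocyte-like cells, the background gauge of the healthy library, had 0.395% (median 11685 UMIs). Each endothelial share thus lay above the share in the gauge of its own library. After thinning of each cell to 2000 UMIs the shares were 2.89% and 31.4%, with 532 and 73 shallower cells left out, beside 3.66% in T and NK cell-like and 0.048% in cholangiocyte-like cells.

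UMIs of genes that mark stellate or other mesenchymal cells were present in the CCl4 endothelial-like cells. Reln, a marker of stellate cells and also of lymphatic endothelium, gave 87 UMIs there and stood at 865 CPM in stellate-like cells. Col1a1, a collagen gene of mesenchymal cells, had UMIs in 40.8% to 56.2% of the cells of each CCl4 endothelial subcluster. In no healthy endothelial subcluster was it found in more than 0.871% of cells. Lrat stood at 5.98 CPM in the CCl4 endothelial-like cells against 435 CPM in stellate-like cells. The healthy endothelial subclusters held between 0 and 8.22 CPM of Lrat, so a low Lrat level was not particular to the CCl4 library. Ednra, which stellate cells carry along with Ednrb, gave 10 UMIs in these endothelial-like cells beside 2295 of Ednrb. The part of stellate or other mesenchymal RNA in the endothelial Ednrb level was not tested further.

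Ece1, the converting enzyme, was broadly detected. It stood at 405 CPM (396 to 413) in healthy and 333 CPM (316 to 350) in CCl4 endothelial-like cells, a ratio of 0.823 (0.777 to 0.870). In stellate-like cells of the CCl4 library its level was 106 CPM (102 to 110), in healthy hepatocyte-like cells 82.4 CPM and in healthy cholangiocyte-like cells 44.2 CPM. Mesothelial-like cells held 37.8 CPM in the healthy and 26.4 CPM in the CCl4 library, and T and NK cell-like cells held 17.8 CPM. In each library the endothelial interval lay above that of every other named class of at least 50 cells.

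Nos3 was mostly found in endothelium. Endothelial-like cells held 95.9% (94.9 to 96.8) of the Nos3 UMIs of the healthy library and 70.0% (65.3 to 74.5) of those of the CCl4 library. Of the others in the CCl4 library, 57 of 404 UMIs were in an unnamed cluster with stellate and endothelial markers (cluster 22, 79 cells, 34.0 CPM) and 25 in mesothelial-like cells. Its level was 82.7 CPM (78.7 to 86.8) in healthy and 65.1 CPM (57.7 to 73.1) in CCl4 endothelial-like cells, a ratio of 0.787 (0.692 to 0.894). On the log2 scale this ratio was -0.34, beside the median of -0.32 over all genes tested. In the healthy endothelium Nos3 stood at 79.4 CPM (74.9 to 84.1) in the main sinusoidal cluster and 95.4 CPM (82.6 to 109.6) in the large-vessel cluster, and these intervals overlap. By subcluster, Nos3 stood at 102 CPM (87.5 to 118) in the healthy large-vessel subcluster and 80.8 CPM (76.7 to 85.0) outside it. In the CCl4 library these levels were 133 CPM (84.2 to 199, from 23 UMIs) and 62.3 CPM (54.9 to 70.3). Within each library the intervals by subcluster did not overlap. Nos3 in stellate-like cells was 0.385 CPM, from 10 UMIs. The other synthases were scarce, with Nos1 at 0.617 CPM and Nos2 at 0.0385 CPM in stellate-like cells.

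Of 14 genes that regulate nitric oxide synthesis, 13 could be compared in endothelium, 1 was higher and 3 were lower in the CCl4 library. Their median log2 ratio was -0.54, and over all genes tested 17.9% passed the rule, with 365 higher and 1243 lower, so the split of the list resembles that of all genes. Slc7a1, the transporter of the substrate arginine, was higher, at 35.0 against 8.93 CPM. Klf2, a shear-responsive factor that induces Nos3, was lower, at 871 against 2101 CPM, a ratio of 0.415 with an upper bound of 0.429. Spr, which makes the cofactor tetrahydrobiopterin, was lower at 26.7 against 66.5 CPM, and Arg1, which consumes arginine, at 1.84 against 10.6 CPM. Arg1 is also a gene of hepatocytes, and 2 subclusters of the healthy endothelial-like cells (369 and 128 cells) carried 13 and 10 hepatocyte markers. Without them Arg1 stood at 9.46 CPM and Spr at 66.9 CPM in the healthy cells, and the ratios were 0.195 and 0.399. Klf2 thus differed by more than the rule asks while Nos3 did not. Among the targets of cyclic GMP, its kinase Prkg1 was higher, at 21.6 against 10.2 CPM. Of the 26 pathway genes beside the members, 16 could be compared in endothelium, 2 were higher and 3 lower, with a median log2 ratio of -0.53.

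**Figure D3:**
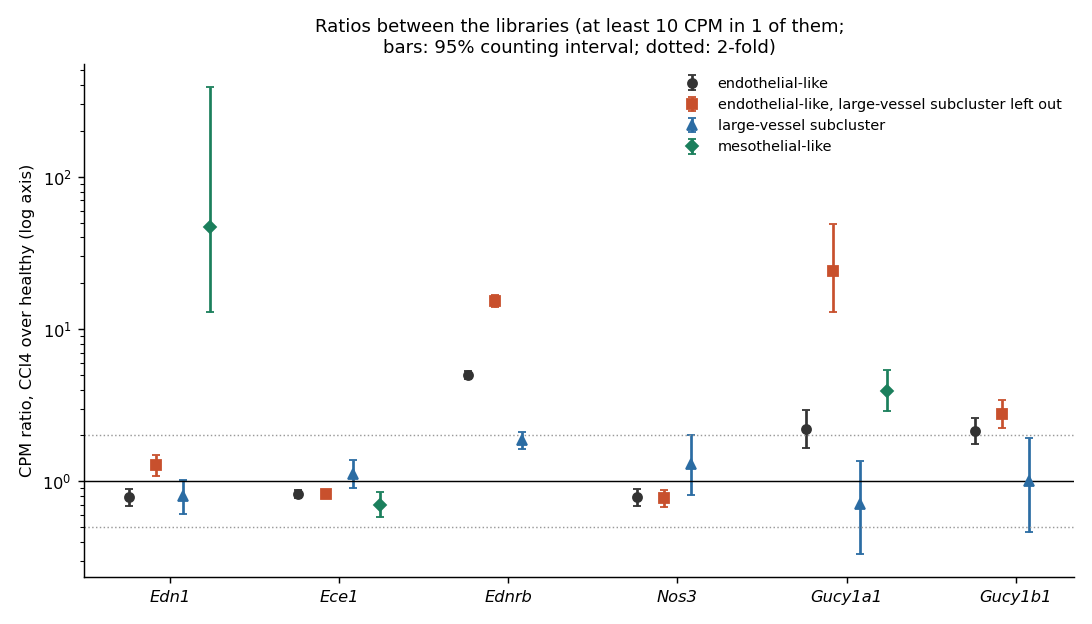
Ratio of CPM, CCl4 over healthy (log axis), for the members with at least 10 CPM in either library, with 95% counting intervals and dotted lines at 2-fold. Ednrb was 4.96 times as high in endothelial-like cells and 15.2 times outside the large-vessel subclusters, Edn1 was 46.9 times as high in mesothelial-like cells, and the endothelial ratios of Ece1, Nos3 and Edn1 lay within 2-fold.

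Mesothelial-like cells, which cover the surface of the liver, were recovered in number in both libraries. Edn1 stood at 0.529 CPM in the healthy cells, from 2 UMIs, and at 24.8 CPM in the CCl4 cells, from 405 UMIs, a ratio of 46.9 (12.9 to 389). The 405 UMIs came from 181 of 890 cells, and the 10 highest cells held 29.1% of them. In this comparison 21.0% of genes passed the rule, and of the 3 members that could be compared 2 were higher. Edn2, a second endothelin ligand, moved the other way, from 10.8 CPM (41 UMIs) to 0.857 CPM (14 UMIs). Of the other pathway genes 15 could be compared in mesothelial-like cells, 5 were higher and 4 lower, with a median log2 ratio of -0.18 beside -0.08 over all genes tested. Those that were higher were Pde5a, Mrvi1, Gch1, Hsp90aa1 and Prkg1, and those that were lower were Edn2, Klf2, Klf4 and Cav1.

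The second member that was higher in mesothelial-like cells was Gucy1a1, at 12.4 CPM (9.13 to 16.5) in the healthy and 48.5 CPM (45.2 to 52.0) in the CCl4 library. T and NK cell-like cells of the CCl4 library held 39.6 CPM (24.2 to 61.2), and hepatocyte-like cells 64.8 CPM (44.4 to 91.5). Both intervals overlap that of the CCl4 mesothelial-like cells. Macrophage and monocyte-like cells of that library held less, 22.2 CPM (14.1 to 33.3). The part of free RNA in the Gucy1a1 level of the CCl4 mesothelial-like cells was not tested. Its partner Gucy1b1 was at 2.69 CPM in those mesothelial-like cells. Gucy1a1 in CCl4 endothelial-like cells, 17.5 CPM, lay below the level in T and NK cell-like cells. Over the class as a whole it cannot be told apart from free RNA. The ratio to the healthy library was 2.22, and 24.0 (12.9 to 48.9) without the large-vessel subclusters, from 66 against 12 UMIs. The 27 cells of the CCl4 large-vessel subcluster held 10 of the 76 endothelial-like UMIs, too few to be judged apart. Gucy1b1 in endothelial-like cells was 16.9 CPM (15.2 to 18.8) in the healthy library and 36.3 CPM (30.9 to 42.5) in the CCl4 library, and the latter lay above the T and NK cell-like level of 13.9 CPM (5.58 to 28.6). In the healthy library, which has little stellate RNA, Gucy1a1 stood at 57.5 CPM (47.7 to 68.8) in the large-vessel cluster and at 0.478 CPM in the main sinusoidal cluster. The 13 smooth muscle-like cells of that library held 612 CPM (453 to 809), from 49 UMIs.

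In the CCl4 library Ednra and both guanylate cyclase subunits were higher in stellate-like than in endothelial-like or mesothelial-like cells, whereas Ednrb was high in stellate-like and endothelial-like cells. Ednra, the receptor that contracts smooth muscle and stellate cells, stood at 171 CPM (166 to 176) in hepatic stellate-like cells, 2.30 CPM in endothelial-like cells and 1.78 CPM in mesothelial-like cells. T and NK cell-like cells had 0 Ednra UMIs, which allows up to 5.95 CPM, and macrophage and monocyte-like cells held 5.79 CPM, so the endothelial and mesothelial values are read as background. Ednrb stood at 534 CPM (525 to 543) in stellate-like and 528 CPM in endothelial-like cells, 2 levels whose intervals overlap. The stellate-like level depended on which clusters were counted, and was 353 CPM over every mesenchymal-like cell and 351 CPM with no doublet removed. Gucy1a1 stood at 755 CPM (745 to 766) and Gucy1b1 at 235 CPM (229 to 241) in stellate-like cells, and Gucy1a1 was higher still, at 983 CPM, in the mesenchymal-like cluster 16 described below. Stellate-like cells held 74.7% of the 5938 Ednra UMIs and 68.7% of the 20170 Ednrb UMIs of the library.

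Ednra made up 24.3% (23.6 to 24.9) of the Ednra and Ednrb UMIs in stellate-like cells, and 0.434% in endothelial-like cells of the same library. UMI counts at the 3′ end are captured with unlike efficiency for different genes, so the share is compared between cell groups and is no molar ratio of the receptors. Of the 1858 stellate-like cells, 73.8% had UMIs of both receptors, 17.7% of Ednrb alone, 4.36% of Ednra alone and 4.14% of neither. In T and NK cell-like cells 7.14% had Ednrb alone and 0 had Ednra.

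Receptor levels differed between the mesenchymal clusters of the CCl4 library. The stellate-like cluster richest in Lrat, the retinol-storing enzyme (cluster 15, 464 cells), held 254 CPM (241 to 267) of Ednra and 690 CPM (669 to 711) of Ednrb. The largest stellate-like cluster (cluster 4, 1224 cells) held 150 CPM (144 to 155) and 503 CPM (493 to 514), and the cycling stellate-like cluster (cluster 3, 170 cells) held 104 CPM (90.2 to 119) and 324 CPM (300 to 350). A mesenchymal-like cluster led by Dpep1, Thbs4 and Mfap4 (cluster 16, 1288 cells), whose stellate and portal fibroblast markers were equal in number so that it was given no narrower name, held 39.9 CPM (37.0 to 42.9) and 88.5 CPM (84.1 to 93.0). None of the 4 intervals overlapped another for either receptor, and the order of the clusters was the same for both. The Ednra share was 26.9%, 22.9%, 24.2% and 31.1% in the same order. The interval of cluster 16 (29.2 to 33.0) lay above those of clusters 15 (25.8 to 28.1) and 4 (22.2 to 23.7).

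**Figure D4:**
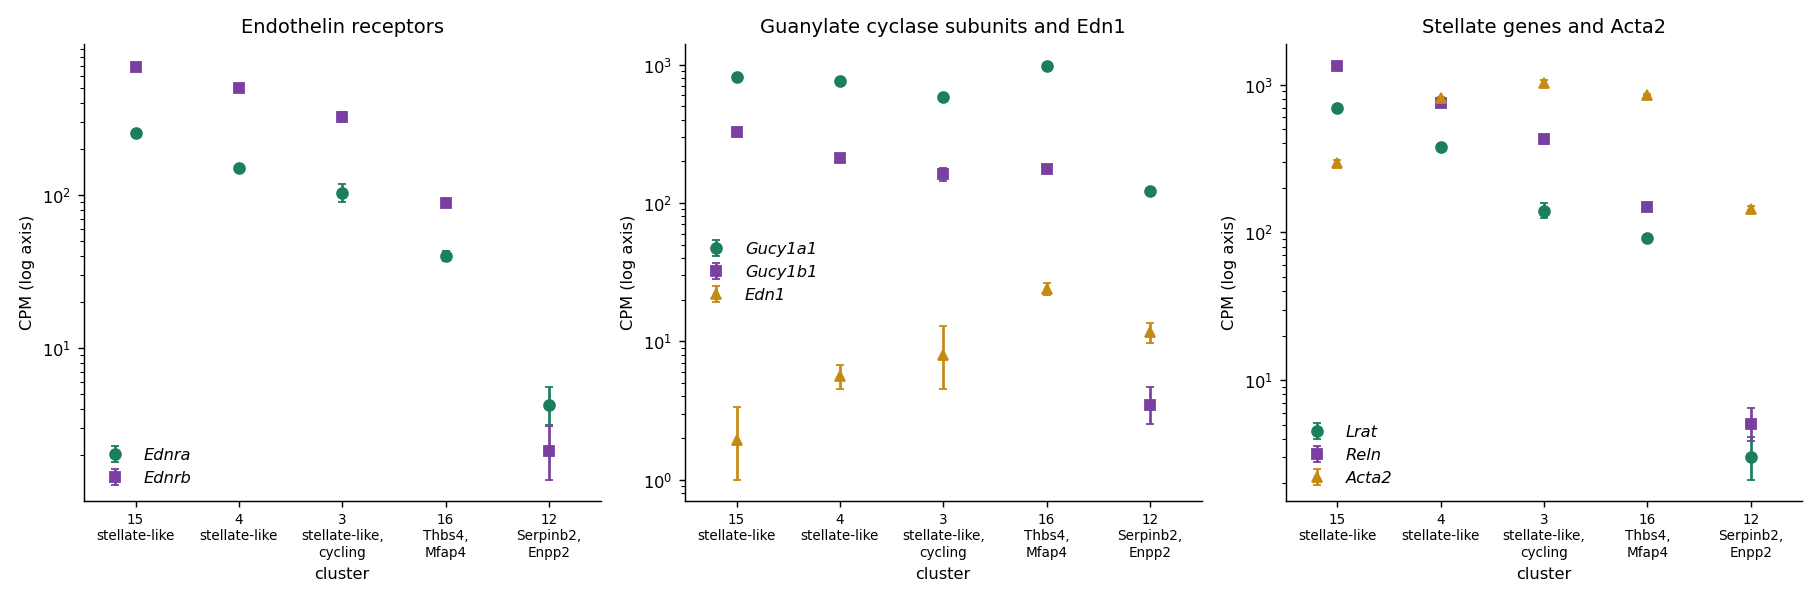
Levels (CPM, log axis) of the receptors, the guanylate cyclase subunits with Edn1, and 3 reference genes in 5 clusters of the CCl4 library, with 95% counting intervals. Ednra and Ednrb were lower from cluster 15, picked as the richest in Lrat, to cluster 16, along with Lrat and Reln. Gucy1a1 stayed between 579 and 983 CPM in these 4 clusters, and Edn1 was highest in cluster 16.

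Against cluster 15, cluster 16 held 0.157 times the Ednra level (0.144 to 0.172) and 0.128 times the Ednrb level (0.121 to 0.136). Of the 8624 genes compared between these clusters 12.2% passed the rule, and 3 of 6 members did. The third was Edn1, at 23.8 CPM (21.6 to 26.2) in cluster 16 against 1.93 CPM (0.999 to 3.38) in cluster 15. Gucy1a1 did not pass, at 983 against 813 CPM, nor did Gucy1b1, at 177 against 327 CPM. Lrat was lower too, at 91.1 against 694 CPM, which follows from picking cluster 15 as the stellate-like cluster richest in Lrat. Reln was also lower, at 148 against 1335 CPM. Acta2, the contractile actin of activated stellate cells, was higher, at 846 against 293 CPM. The clusters were drawn from the same transcriptomes, without the 7 genes or their pathway list, so these values describe the clusters and are no test.

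The 5 stellate-like cells of the healthy library had 32 Ednrb and 12 Ednra UMIs, and the 13 smooth muscle-like cells had 11 Ednra UMIs and 0 Ednrb UMIs. These 18 cells held 23 of the 31 Ednra UMIs of the library. Healthy and injured stellate cells could not be compared on so few cells.

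**Figure D5:**
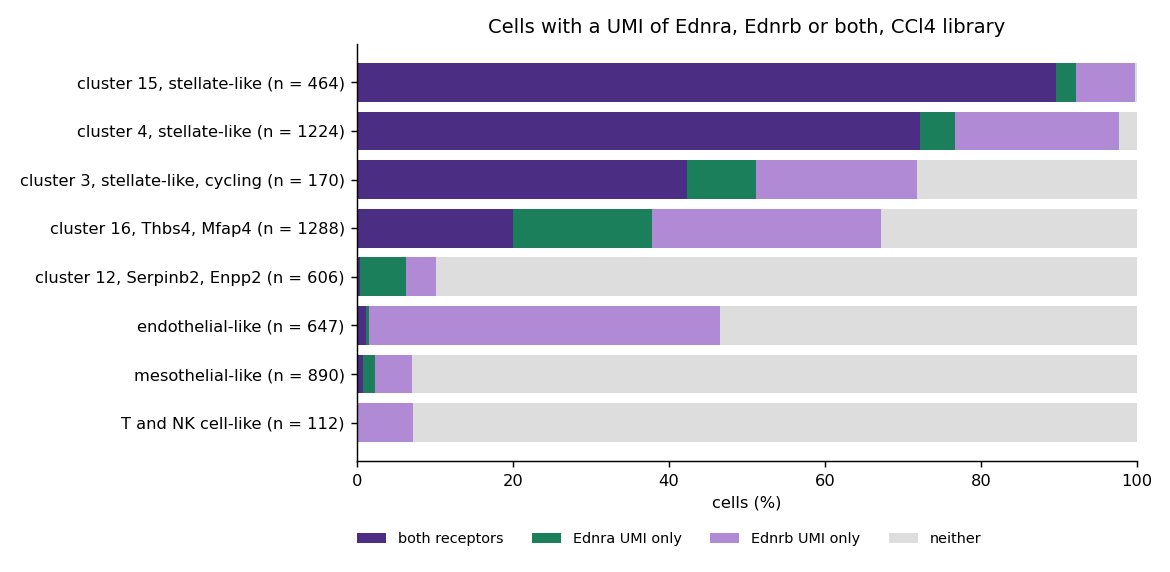
Share of cells (%) with UMIs of both endothelin receptors, of Ednra alone, of Ednrb alone or of neither, in clusters and classes of the CCl4 library. UMIs of both were found in 89.7% of cluster 15, 72.2% of cluster 4 and 258 of the 1288 cells of cluster 16, and in 1.08% of endothelial-like cells, where Ednrb alone was found in 45.0%.

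The subunits of soluble guanylate cyclase were found together in 86.8% of stellate-like cells. The ratio of Gucy1a1 to Gucy1b1 UMIs was 2.48 in cluster 15, 3.57 in cluster 4, 3.60 in cluster 3 and 5.55 in cluster 16. An unnamed cluster led by Serpinb2, Enpp2 and Cxcl5 (cluster 12, 606 cells) held 121 CPM of Gucy1a1 and only 3.49 CPM of Gucy1b1, with 4.22 CPM of Ednra and 2.11 CPM of Ednrb. Gucy1a2, another alpha subunit, stood at 22.2 CPM in stellate-like cells, and Gucy1b2 at 0. Of the cyclic GMP targets in stellate-like cells, Vasp, an actin regulator phosphorylated by the kinase, was highest at 78.6 CPM, followed by Prkg1 at 74.0 CPM, Mrvi1, a substrate of that kinase also named Irag1, at 52.4 CPM, and the phosphodiesterase Pde5a at 36.9 CPM.

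Over 24 populations (a cluster in 1 library) of at least 50 cells, the genes most like each member in log2(CPM + 10) were found by Pearson's r among 8072 genes. Ednra was most like Ms4a4d (r = 0.984), Gpc6 (0.982) and Bmp5 (0.981), and Nos3 most like Tek (0.973), the endothelial angiopoietin receptor. Gucy1a1 was most like Col6a3 (0.971) and Des (0.960), which encode a collagen chain and desmin, and Gucy1b1 most like Ntn1 (0.958). Ednrb, present in both endothelium and stellate cells, was most like Plvap (0.949) and Rspo3 (0.939). Ece1 was most like Jcad (0.923), and Edn1 like Nrg1 (0.895) and Grrp1 (0.892). The populations share 2 libraries and differ in depth, and no p-value is given.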

How the data were processed

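Liver cells of 2 samples were measured by droplet single-cell RNA-seq (10x Genomics, 3′). The deposited files hold counts, UMIs per gene and cell, as the authors' pipeline wrote them. Their headers name versions 3.1.0 (healthy) and 6.0.1 (CCl4) of the counting software, with 31053 and 32285 genes listed, and the submitters' processing notes name the builds GRCh38 and mm10. The gene identifiers are mouse. The 30406 shared genes hold 99.9% and 99.6% of the UMIs, and gene lists or software versions that differ can shift single genes.

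Barcodes were kept with at least 500 UMIs, 200 genes and at most 30% mitochondrial UMIs. Barcodes were ranked by Scrublet's doublet score and the top 0.8% per 1000 cells were removed (277 and 487 barcodes). Both libraries were clustered together (scanpy 1.11.5, 2000 variable genes, 10 principal components, Leiden resolution 1). A population was named from at least 3 markers that rose 2-fold, and stayed unnamed where another class led or its depth was low. Named genes were the 7 members, the most abundant pathway genes of a group, and up to 3 most similar genes. Other list genes and stellate or mesenchymal markers were named after their values were seen. CPM, exact intervals and ratios were computed from summed UMIs, and interval and clustering code was tested on simulated data. The members and lists were chosen with earlier results of these data known. Alternatives were other cell filters, doublet handling, clustering settings and scalings.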

Additional observations from a re-analysis of the deposited data

How the results depend on the processing

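The endothelial ratios were recomputed under 14 alternatives each, and the stellate-like levels and receptor share under 11. Some were chosen after seeing the data (cells of at least 3000 UMIs, cells without a globin, Alas2, Ppbp or Pf4 UMI, every mesenchymal-like cell in place of the stellate-like clusters, and 3 sets of endothelial subclusters left out). Of 111 values, 65 stayed inside the counting interval of the reported value and 46 moved outside it. The Ednrb ratio stayed above 4.70, and the Nos3 and Ece1 ratios stayed below 1. In the main comparison the log2 ratios were -0.28 for Ece1, -0.34 for Nos3 and -0.35 for Edn1. All 3 lay near the median of -0.32 over all genes tested. The Edn1 ratio turned direction, to 1.27, without the large-vessel subclusters, where the Ednrb ratio was 15.2. Without the CCl4 subcluster led by Nts as well, the ratios were 0.279 for Edn1, 0.660 for Nos3, 8.12 for Ednrb and 0.759 for Ece1. The healthy subclusters that shared leading genes with it were kept in these ratios, and 1 of them held most of the healthy Edn1 UMIs. Leaving out the 2 healthy subclusters with hepatocyte markers moved none of the 4 ratios outside its interval. Leaving the 50 most abundant genes of a class out of the total raised every ratio 1.16 times and every stellate-like level 1.38 times by construction, to ratios of 0.908, 0.914, 5.75 and 0.955 and to 236 CPM of Ednra, 736 of Ednrb, 1042 of Gucy1a1 and 324 of Gucy1b1. The intervals of the Edn1, Nos3 and Ece1 ratios then reached 1.

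Which clusters were named stellate-like mattered most for the receptors. Taking every mesenchymal-like cell gave 118 CPM of Ednra, 353 of Ednrb, 848 of Gucy1a1, 212 of Gucy1b1 and an Ednra share of 25.0%. With no doublet removed, 3343 cells were named stellate-like in place of 1858, with 119, 351, 846 and 211 CPM and a share of 25.3%. Clustering each library on its own gave 137, 412, 819 and 220 CPM, a share of 24.9% and an Ednrb ratio of 5.42. With every cell weighing the same, Ednra was 179, Ednrb 522 and Gucy1a1 719.9 CPM, the share 25.6%, and the ratios 0.664 for Nos3 and 0.763 for Ece1. With 30 principal components, Ednra was 179, Ednrb 555 and Gucy1b1 242 CPM. At resolution 2, Ednra was 179 and Ednrb 547 CPM, and the Ece1 ratio 0.875. At least 1000 UMIs per cell gave 546 CPM of Ednrb and an Ece1 ratio of 0.872, and a mitochondrial limit of 10% gave 544 CPM of Ednrb and 742 of Gucy1a1. No paired analysis was possible because each group has 1 library. The counting intervals leave out animal and preparation, so differences between the libraries have no measured replicate error, and in the healthy library the 5 stellate-like cells set no level.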
